A study of Mus musculus with 24 samples.

Results

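The genes described here encode 40 proteins that make ribosomes in the nucleolus, listed by gene symbol, with no measured value in the rule. The list was drawn up with earlier results of these data known. Each gene was represented by the probe set annotated to it alone that had the highest mean over all arrays. This gave values for 39 of the 40 genes, out of 18194 genes with such a probe set. Mrto4 lies only on a probe set that is shared with other genes and has no value here. RNA came from C2C12, an established line of mouse myoblasts from skeletal muscle that divide in rich medium and fuse into myotubes when serum is withdrawn, and it was measured on 24 Affymetrix arrays at 8 time points with 3 arrays each. By the labels, the cells stood at 50% confluency on Day -1 and at 90% on Day 0, when differentiation was induced. The later samples, taken after 6 hours and then daily from Day 1 to Day 5, were kept in reduced serum, given as 2% in the labels. All samples were of this same line, nothing was knocked out or added, and no uninduced culture was followed in parallel, so time in culture, confluence and the change of medium cannot be told apart after Day 0.

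Ribosome production starts with RNA polymerase I, which transcribes the ribosomal DNA into a single long precursor. Small nucleolar ribonucleoproteins (snoRNPs) then modify this RNA: the box C/D particles methylate it and the box H/ACA particles turn selected uridines into pseudouridine. Large sets of assembly factors cut and fold the RNA around ribosomal proteins into a small and a large subunit. The pathway uses much of the energy of a growing cell, and it is a classic target of the growth regulator MYC. Muscle cells stop dividing when they differentiate, but myotubes go on to build large amounts of contractile protein.

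Intensities were background-corrected and scaled by the authors and are given on a linear scale. Levels are arithmetic means over the 3 arrays of a time point, and a change is the difference of mean log2 intensities, later minus earlier, from a single limma fit to all 24 arrays. Called means an adjusted p under 0.05 over all 13766 probe sets tested, those whose level reached 100 at some time point. All 39 genes passed this filter, although Polr1a and Rrp9 lay below 100 at 6 time points each, Polr1b at 2 and Rrp12 at 1. The labels do not say whether replicate arrays stand for separate cultures, and the spread behind the p-values may therefore be technical. The arrays had trimmed means between 144.9 and 155.7, and 25.4% to 27.0% of their probe sets reached 100. Arrays of the same time point correlated at 0.966 to 0.996. Some arrays differed from their replicates in several genes. Day -1 replicate 2 was the lowest of its time point for Polr1c, Nop10, Nhp2, Gar1 and Fbl. It was the highest for Polr1a, Polr1b and Heatr1. The number of arrays limits the precision.

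Markers of skeletal muscle were present: the level of Myog rose from 404 on Day -1 to 9369 on Day 5, and that of Myod1 from 681 to 1064. Of 7 fibroblast markers, Dcn rose from 37.7 to 5445, Lum from 3.45 to 171 and Pdgfra from 27.5 to 148, while Tcf21, Col15a1, Pi16 and Dpt stayed under 4 at both times. The summed level of this list lay between 70.5 and 82.3 on the Day -1 arrays and between 5319 and 6401 on the Day 5 arrays. Its part in the results below was not tested. In a bulk sample, fewer cells of a type and less RNA per cell cannot be told apart.

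Ribosome biogenesis genes fell in steps, at confluence and again between 6 hours and Day 1, and most were still below the growing cells on Day 5. Of the 39 genes, 28 had their highest level on Day -1 and 20 their lowest on Day 2. Relative to Day -1, the median log2 difference over the genes was -0.35 on Day 0, -0.23 at 6 hours and -0.68 on Day 1. It was -0.74 on Day 2, the lowest value, then -0.59 on Day 3, -0.56 on Day 4 and -0.66 on Day 5. By limma's F test over the 8 time points 37 of 39 changed, beside 88.8% of all probe sets tested. The exceptions were Nop10 (adjusted p = 0.0604) and Mybbp1a (adjusted p = 0.117).

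From Day -1 to Day 0, 21 of the 39 genes fell and 2 rose, which is 53.8% and 5.13%, beside 21.7% and 23.3% of all probe sets tested. From Day 0 to 6 hours the genes split: 7 rose (17.9%, beside 22.4% of all) and 5 fell (12.8%, beside 20.9%), shares no larger than the background. From 6 hours to Day 1, 24 fell (61.5%, beside 15.4%) and 0 rose, beside 11.6% of all. For the rises, limma gave 0 genes at an unadjusted p under 0.05 too. From Day 1 to Day 2, 10 fell (25.6%, beside 21.7%) and 3 rose (7.69%, beside 22.7%). The median changes over these intervals were -0.35, 0.14, -0.46 and -0.11, where the median over all probe sets tested was 0.01, 0.03, -0.05 and -0.01. Among neighbouring time points, the share of these genes that fell was more than 2 times the background into Day 0 and into Day 1.

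After Day 2 few single genes changed between neighbouring days. From Day 2 to Day 3, 3 genes rose (7.69%, beside 3.23%), Rrp12, Rrp9 and Gnl3, and 0 fell, beside 2.95%. From Day 3 to Day 4 limma called 0 of the 39, beside 0.472% of probe sets higher and 0.661% lower, and 4 genes were higher and 1 lower at an unadjusted p under 0.05. From Day 4 to Day 5 it called 0 as well, beside 1.37% higher and 2.11% lower, with 0 higher and 4 lower at an unadjusted p under 0.05. Leaving out Day 5 replicate 1 or Day 5 replicate 3 gave 2 genes called lower in this interval. Over the whole span from Day 2 to Day 5, 11 genes rose (28.2%, beside 13.8%) and 0 fell, beside 21% of all, with 3 lower at an unadjusted p under 0.05. Between Day -1 and Day 5, 27 fell (69.2%, beside 38.3%) and 3 rose (7.69%, beside 31.9%). Between Day -1 and 6 hours, 11 fell (28.2%, beside 6.62%) and 0 rose, beside 10.6% of all, again with 0 higher at an unadjusted p under 0.05. Comparisons that share a time point share its arrays and are not independent of each other.

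**Figure D1:**
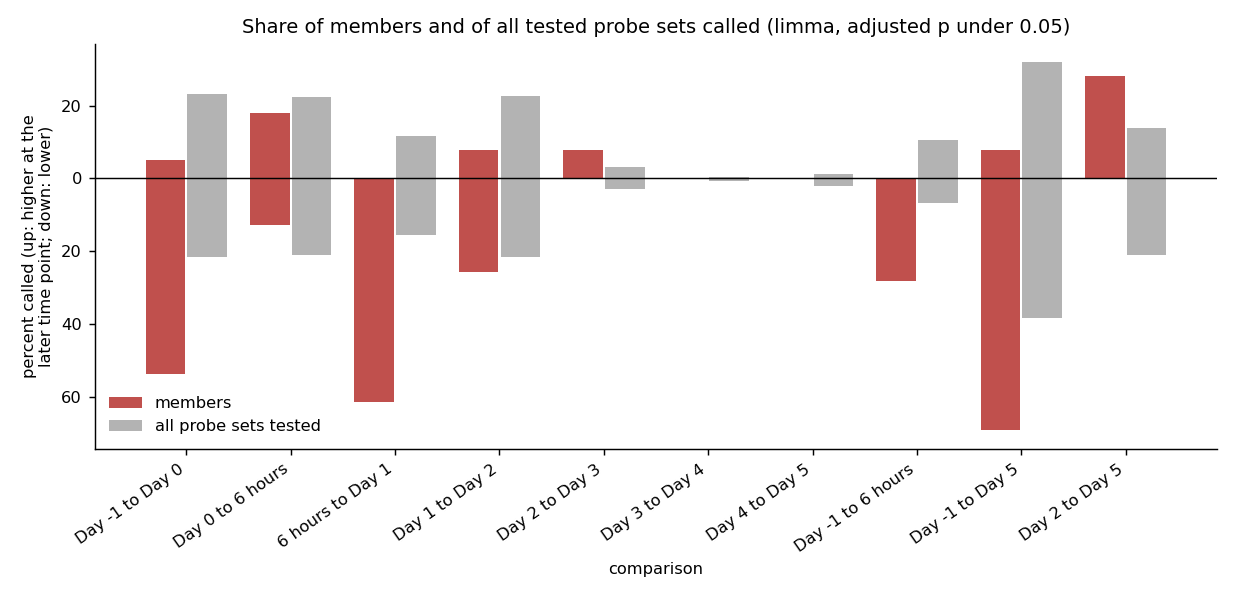
Percent of the 39 ribosome biogenesis genes (red) and of the 13766 probe sets tested (grey) called higher (above 0) or lower (below 0) at the later time point of each of 10 comparisons. The red bars reach furthest below the grey ones from Day -1 to Day 0, from 6 hours to Day 1 and from Day -1 to Day 5.

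Single arrays decided some of the calls. Of the 27 genes called lower on Day 5 than on Day -1, 24 were called without each of the 6 arrays in turn. The same held for 13 of the 21 genes called lower from Day -1 to Day 0, for 14 of the 24 from 6 hours to Day 1, for 7 of the 10 from Day 1 to Day 2, and for 7 of the 11 called higher from Day 2 to Day 5. Leaving out Day 0 replicate 3 alone took the calls from Day -1 to Day 0 from 23 to 15. From Day -1 to 6 hours 4 of the 11 were called throughout, and the number of calls was 6 without Day -1 replicate 1, 7 without Day -1 replicate 3 and 7 without 6 hours replicate 1. Where 27 of the genes had several probe sets, the other tested probe sets of the called genes had the same sign in 18 of 18 cases from Day -1 to Day 0, in 14 of 14 from 6 hours to Day 1 and in 21 of 22 from Day -1 to Day 5, where the exception was a probe set of Nolc1. From Day -1 to 6 hours the sign was the same in 7 of 8. The exception was a probe set of Ddx18, with 0.006 beside -0.44 for the one used.

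**Figure D2:**
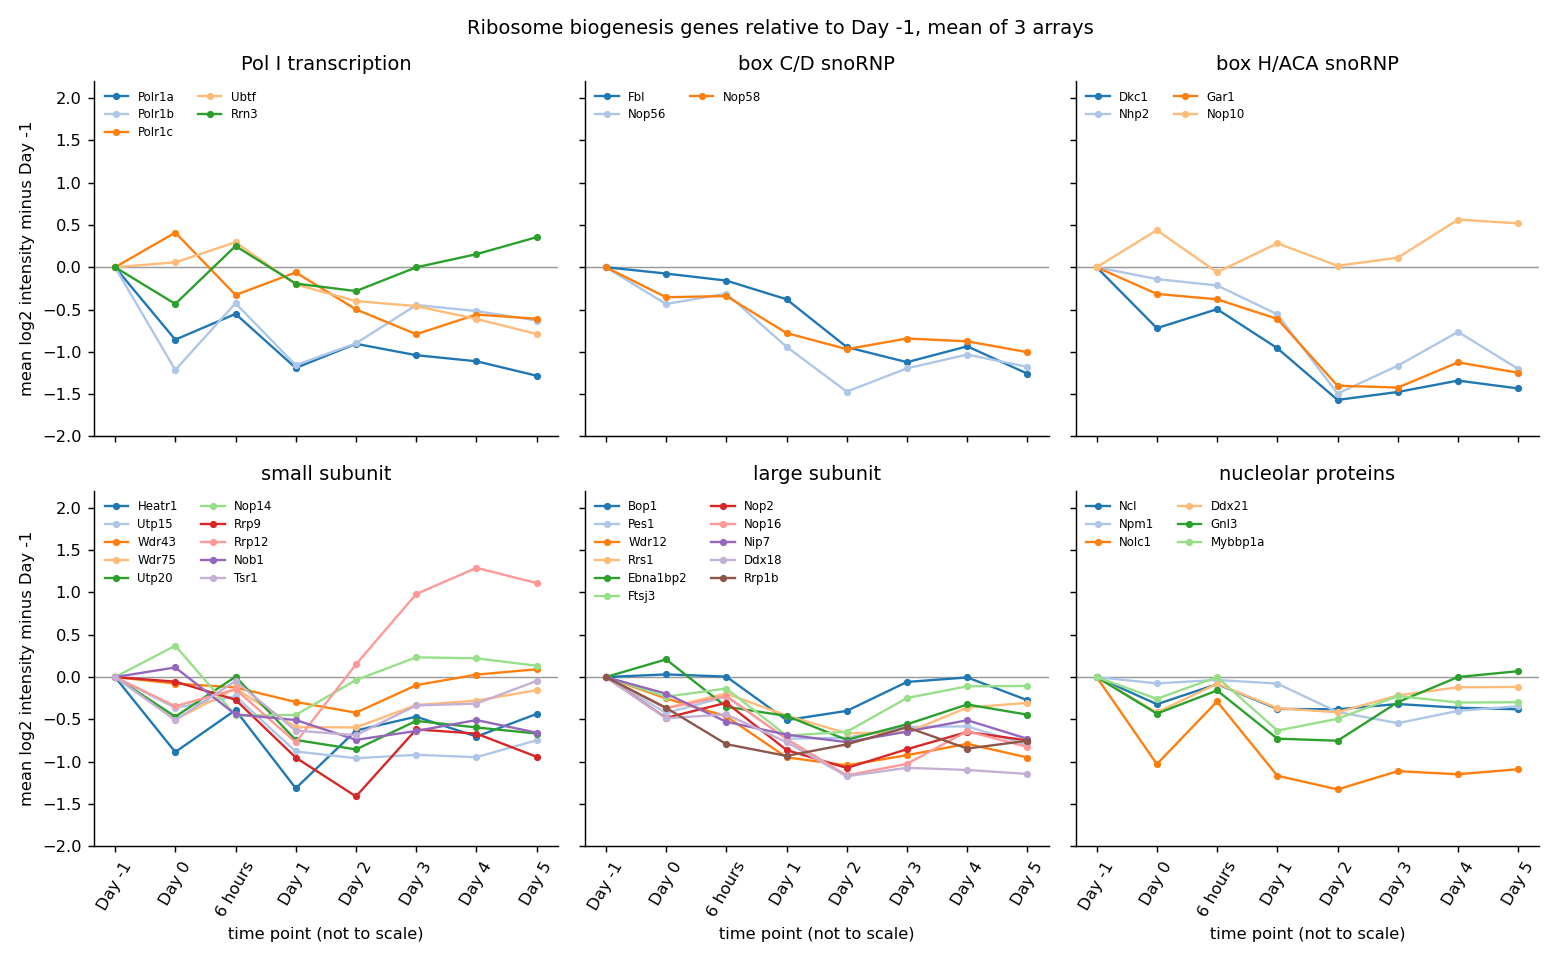
Mean log2 intensity of each gene minus its own mean on Day -1 (vertical axis) at the 8 time points (horizontal axis, not to scale), by role, 3 arrays per point. The snoRNP proteins other than Nop10 lay lower on Day 2 than on any earlier time point, while Rrp12 ended above its start.

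The promoters of the genes were searched for motifs of factors tied to growth and the cell cycle. A window of 250 bases before to 50 after the start site (RefSeq, GRCm38.p6) was given for 35 of the 40 genes. The E-box CACGTG, the textbook site of MYC with its partner MAX, lay in the windows of 7 of 35 (20%), beside 12.6% of genes with a tested probe set and 8.09% of all 27025 genes with a window. The ETS motif CCGGAAGT, on either strand, lay in 8 of 35 (22.9%), beside 10.7% and 4.31%. CCAAT, the box of NF-Y, lay in 13 of 35 (37.1%), beside 43% and 41.1%. The E2F motifs TTTGGCGC and TTTCGCGC lay in 1 (2.86%) and 0 of the 35, beside 1.25% and 0.864% of genes with a tested probe set and 0.585% and 0.374% of all. Of 25 DNA replication genes with a window, 12% held the E-box, 20% the ETS motif, 64% CCAAT, and 20% and 24% the E2F motifs. Of 109 other ribosome biogenesis genes with a window, 16.5% held the E-box and 28.4% the ETS motif. Among 57 genes of cytosolic ribosomal proteins these shares were 10.5% and 19.3%. The ETS share of the 35 genes was thus not above that of the other biogenesis genes. Both strands were searched for each motif, and in no window did an E-box overlap an ETS motif. These are matches of letters, with no measurement of binding.

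The stretches below show the upstream E-box nearest the start site of Rrn3 and of Nop2, and the ETS motif of the genes that had it with room before the start site. They are from RefSeq on GRCm38.p6, written 5′ to 3′ on the strand of the gene, and the capitals mark the motif, which for Gar1 is on the opposite strand. All end before the transcribed part of the gene, in its promoter. The E-box began 48 bases before the start site in Rrn3 and 60 before it in Nop2. The ETS motif began 42 bases before the start site in Polr1c, 23 in Nhp2, 44 in Gar1, 16 in Heatr1 and 103 in Nip7.
Rrn3 (chr16:13780621-13780686, plus strand): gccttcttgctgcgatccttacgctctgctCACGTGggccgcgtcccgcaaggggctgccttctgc
Nop2 (chr6:125131793-125131858, plus strand): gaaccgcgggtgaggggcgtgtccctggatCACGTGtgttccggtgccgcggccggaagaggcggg
Polr1c (chr17:46248050-46248117, minus strand): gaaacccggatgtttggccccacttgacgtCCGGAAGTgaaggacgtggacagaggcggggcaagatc
Nhp2 (chr11:51619720-51619772, plus strand): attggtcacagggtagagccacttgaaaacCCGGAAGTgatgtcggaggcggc
Gar1 (chr3:129831403-129831470, minus strand): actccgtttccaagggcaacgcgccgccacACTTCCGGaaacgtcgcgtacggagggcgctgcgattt
Heatr1 (chr13:12395329-12395374, plus strand): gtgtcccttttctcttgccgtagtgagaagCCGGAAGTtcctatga
Nip7 (chr8:107056744-107056811, plus strand): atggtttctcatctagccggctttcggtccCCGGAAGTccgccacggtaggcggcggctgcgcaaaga

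All 7 genes with an E-box were lower on Day 0 than on Day -1, with a median change of -0.43, and lower on Day 1 than at 6 hours, with a median of -0.56. The 27 measured genes with a window but no E-box had medians of -0.35 and -0.46 in these intervals and held both falls and rises. Falls were the rule without regard to the motif. Of all 39 genes, called or not, 32 were lower on Day 0 than on Day -1 and 36 lower on Day 1 than at 6 hours. The smallest fall into Day 0 with an E-box was -0.08. Whether genes with and without an E-box differ was not tested. By Day 5 the order of their medians was the other way. The 7 genes with an E-box in the window had a median change from Day -1 to Day 5 of -0.30, with a range from -0.80 to 0.36, and the 27 others had -0.75, from -1.43 to 0.52. The other E-boxes, in Wdr43, Utp20, Tsr1, Pes1 and Mybbp1a, lay after the start site, and Rrn3 had a further match 215 bases before it.

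Among RNA polymerase I and its factors was Polr1b, with the largest change of the 39 genes into Day 0. Of the 5 genes, 3 fell from Day -1 to Day 0 and 1 rose, beside 21.7% and 23.3% of all probe sets tested. On Day 5, 4 were lower and 1 higher than on Day -1, beside 38.3% and 31.9% of all. Polr1b (ID 20017) encodes the subunit that forms the active centre of the enzyme together with Polr1a. Its intensity on the Day -1 arrays was 175, 223 and 196 and on the Day 0 arrays 91.9, 82.2 and 81.4. At 6 hours the arrays gave 153, 105 and 197, and on Day 1 they gave 81.6, 101 and 83.6. The Day 0 and Day 1 arrays lay below all arrays of Day -1 and of 6 hours. The change was -1.21 ± 0.20 (SE; adjusted p = 7.6e-05) into Day 0, 0.79 ± 0.20 (adjusted p = 0.00412) into 6 hours and -0.73 ± 0.20 (adjusted p = 0.0114) into Day 1. The last of these was not called without 6 hours replicate 3 (adjusted p = 0.0841).

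Polr1a (ID 20019), the largest subunit, read 167, 204 and 161 on Day -1 and 110, 104 and 81.5 on Day 0. On Day 5 it read 78.1, 69.2 and 70.9, its lowest time point, below every array of Day -1. It fell by 0.86 ± 0.16 on the log2 scale into Day 0 (adjusted p = 0.000316), and the change from Day -1 to Day 5 was -1.28 ± 0.16 (2.43-fold, adjusted p = 7.91e-07). At 6 hours, with 137, 92.3 and 138, it was called lower than on Day -1 (-0.55, adjusted p = 0.0241), but not without Day -1 replicate 2 (adjusted p = 0.1002) or 6 hours replicate 2 (adjusted p = 0.121).

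Polr1c (ID 20016), a subunit that polymerases I and III share, went against both. It read 1152, 766 and 1175 on Day -1, then 1226, 1468 and 1349 on Day 0. At 6 hours it read 806, 936 and 696, and all 3 arrays lay below those of Day 0. The rise into Day 0 (0.41 ± 0.16, adjusted p = 0.0429) was not called without Day -1 replicate 2 (adjusted p = 0.297), Day 0 replicate 2 (adjusted p = 0.142) or Day 0 replicate 3 (adjusted p = 0.0910). The change into 6 hours was -0.74 ± 0.16 (adjusted p = 0.00117). On Day 5 Polr1c read 631, 610 and 760, a change of -0.61 ± 0.16 from Day -1 (adjusted p = 0.00215).

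Rrn3 (ID 106298), the factor that brings polymerase I to the ribosomal DNA promoter and that growth signals are known to act on, was the gene of this group that ended higher. It read 347, 377 and 361 on Day -1, 256, 297 and 252 on Day 0, and 457, 362 and 481 at 6 hours. On Day 2 it read 329, 246 and 325, and on Day 5 it read 538, 439 and 418. All Day 5 arrays lay above all arrays of Day -1 and Day 2. The changes were 0.68 ± 0.13 from Day 0 to 6 hours (adjusted p = 0.000509) and 0.64 ± 0.13 from Day 2 to Day 5 (adjusted p = 0.00104). That from Day -1 to Day 5 was 0.36 ± 0.13 (adjusted p = 0.0245), and it was not called without Day -1 replicate 1 (adjusted p = 0.0699), Day -1 replicate 3 (adjusted p = 0.0520) or Day 5 replicate 1 (adjusted p = 0.138). Ubtf, which binds along the ribosomal DNA, had its highest level at 6 hours and its lowest on Day 5, with a change of -0.79 from Day -1 to Day 5 (adjusted p = 0.000385).

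The box C/D proteins all fell over the time course. All 3 were called lower on Day 5 than on Day -1, beside 38.3% of all probe sets tested, with a median change of -1.18. Fbl (ID 14113), the methyltransferase of the particle, read 1437, 1080 and 1374 on Day -1 and 1178, 1324 and 1169 on Day 0, so that these time points overlapped. It read 998, 1071 and 907 on Day 1 and 569, 775 and 679 on Day 2, where all arrays lay below those of Day 1. This step was -0.57 ± 0.15 (adjusted p = 0.00443). On Day 5 it read 496, 458 and 686, and the change from Day -1 was -1.26 ± 0.15 (2.39-fold, adjusted p = 2.38e-07).

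Nop56 (ID 67134), a core protein on which the particle is built, fell at each of the first steps but the 6-hour one. It read 1261, 1177 and 1265 on Day -1, 827, 986 and 932 on Day 0 and 1045, 1087 and 864 at 6 hours. It read 694, 643 and 595 on Day 1 and 416, 464 and 457 on Day 2. These Day 2 arrays lay below those of every earlier time point. The changes were -0.43 into Day 0 (adjusted p = 0.00203), -0.63 from 6 hours to Day 1 (adjusted p = 0.000187) and -0.53 from Day 1 to Day 2 (adjusted p = 0.000412). On Day 5, with 570, 478 and 596, it stood at -1.18 ± 0.10 against Day -1 (adjusted p = 3.46e-09). A rise of 0.29 from Day 2 to Day 5 was not called without Day 2 replicate 1 (adjusted p = 0.125), Day 2 replicate 3 (adjusted p = 0.0572), Day 5 replicate 1 (adjusted p = 0.0969) or Day 5 replicate 3 (adjusted p = 0.135). Nop58, its partner protein, changed by -1.00 ± 0.09 from Day -1 to Day 5 (adjusted p = 4.69e-09).

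Of the 4 box H/ACA proteins, 3 fell by more than 2-fold from Day -1 to Day 5, and the same 3 fell from Day 1 to Day 2. Of all probe sets tested, 38.3% were called lower over the first of these spans, by any amount, and 21.7% over the second. Dkc1 (ID 245474), dyskerin, is the pseudouridine synthase of the particle and also part of telomerase. It read 1314, 1169 and 1248 on Day -1 and 664, 815 and 794 on Day 0. On Day 1 it read 719, 657 and 555, on Day 2 it read 377, 478 and 409, and on Day 5 it read 388, 471 and 534. The Day 2 and Day 5 arrays lay below every array of Day -1, Day 0 and Day 1. The change was -0.72 ± 0.16 into Day 0 (adjusted p = 0.000969), -0.61 ± 0.16 from Day 1 to Day 2 (adjusted p = 0.00381) and -1.43 ± 0.16 from Day -1 to Day 5 (2.7-fold, adjusted p = 8.4e-08), the largest fall of the 39 genes over that span. From Day 2 to Day 5 it was not called (0.14, 95% interval -0.19 to 0.46). Further probe sets of Dkc1 gave 0.70 and 0.06 over this span, and -1.24 and -0.54 from Day 1 to Day 2.

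Nhp2 (ID 52530), an RNA-binding protein of the same particle, read 2054, 1506 and 2131 on Day -1 and 1451, 1392 and 1027 on Day 1. It read 555, 802 and 665 on Day 2 and 821, 590 and 1116 on Day 5. The Day 1 to Day 2 step was -0.94 ± 0.20 (adjusted p = 0.000845), and the Day 2 arrays did not overlap those of Day 1. From Day -1 to Day 5 Nhp2 changed by -1.20 ± 0.20 (adjusted p = 2.03e-05). Gar1 (ID 68147), the fourth protein of the particle, read 574, 529 and 477 on Day 1 and 257, 387 and 282 on Day 2. Its step was -0.79 ± 0.18 (adjusted p = 0.00183), and its change from Day -1 to Day 5 was -1.25 ± 0.18 (adjusted p = 4.84e-06).

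Nop10 (ID 66181), which binds dyskerin within the particle, read 1058, 722 and 968 on Day -1 and 1101, 1079 and 1828 on Day 5. All Day 5 arrays lay above those of Day -1, 2 of them by little. The change was 0.52 ± 0.22 (adjusted p = 0.0459), and it was not called without Day -1 replicate 2 (adjusted p = 0.203), Day -1 replicate 3 (adjusted p = 0.0596) or Day 5 replicate 3 (adjusted p = 0.288). Nop10 was called in no other comparison.

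**Figure D3:**
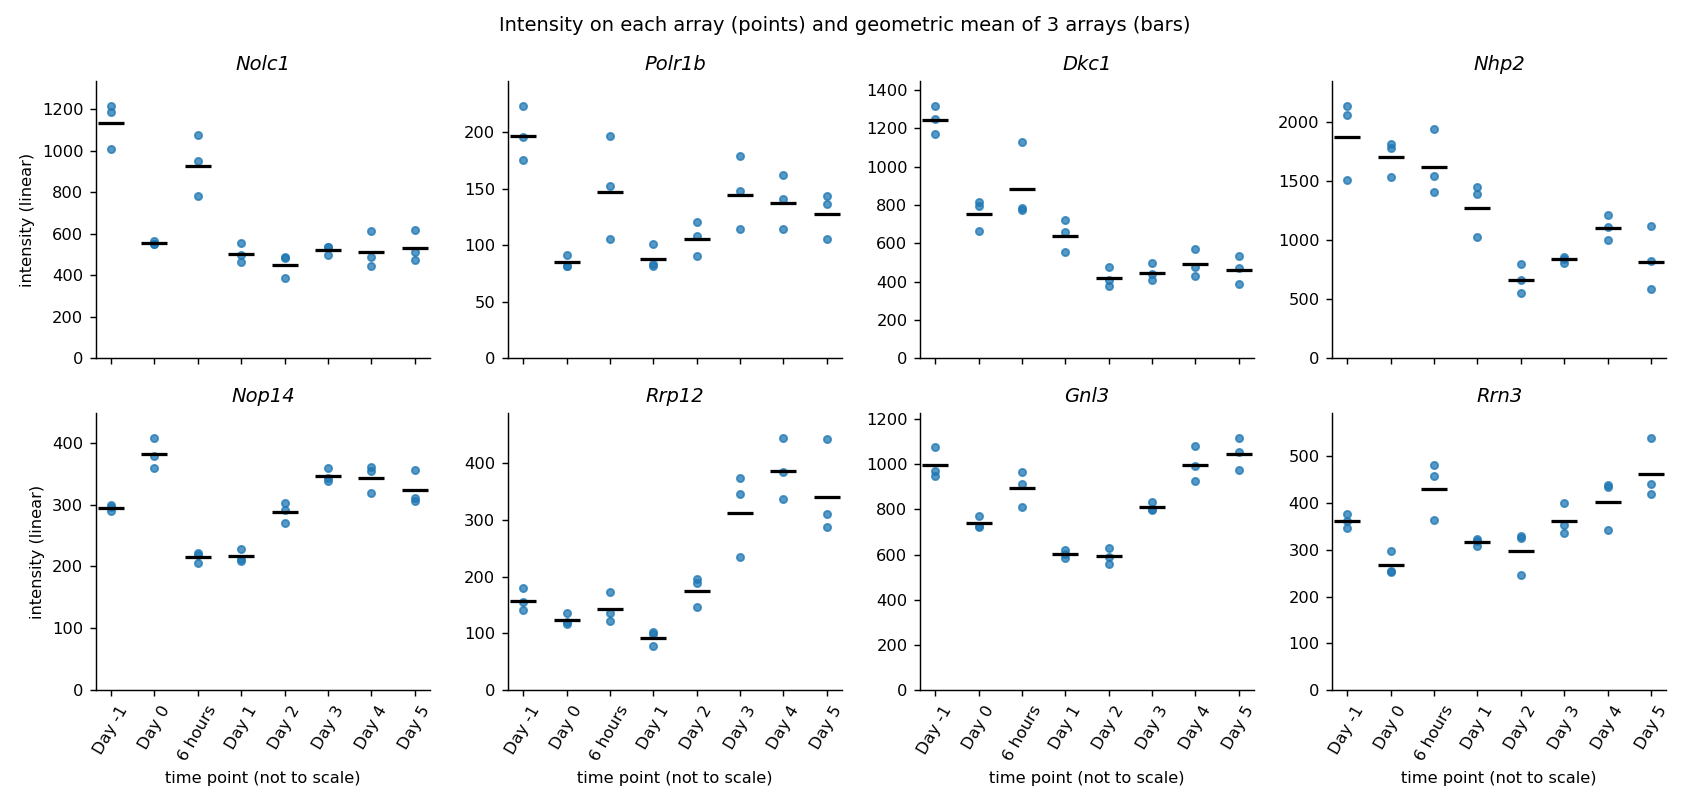
Linear intensity (vertical axes, from 0) of 8 genes on each of the 24 arrays (points) with the geometric mean of each time point (bars), by time point (not to scale). Nolc1 and Polr1b dipped on Day 0 and came back at 6 hours, Dkc1 and Nhp2 stepped down by Day 2, and Rrp12, Gnl3 and Rrn3 rose after Day 2.

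The small subunit factors were divided. Of 10, 5 fell and 1 rose from Day -1 to Day 0, beside 21.7% and 23.3% of all probe sets tested. From 6 hours to Day 1, 7 fell, beside 15.4% of all. By Day 5, 4 were called lower than on Day -1 and 1 higher, beside 38.3% and 31.9%, with a median change of -0.29. The share called lower by Day 5 was thus near that of all probe sets. From Day 2 to Day 5, 5 of these factors rose and 0 fell, beside 13.8% and 21%. Heatr1 (ID 217995), a factor that binds the precursor early and is needed for its transcription, read 202, 308 and 249 on Day -1 and 144, 137 and 124 on Day 0. At 6 hours it read 203, 148 and 230, and on Day 1 it read 103, 94.6 and 104. The changes were -0.89 ± 0.22 into Day 0 (adjusted p = 0.00315) and -0.92 ± 0.22 from 6 hours to Day 1 (adjusted p = 0.00457). On Day 2, with 183, 109 and 210, Heatr1 was called higher than on Day 1 (0.68 ± 0.22, adjusted p = 0.0179), though not without Day 1 replicate 2 (adjusted p = 0.0599), Day 2 replicate 1 (adjusted p = 0.0781) or Day 2 replicate 3 (adjusted p = 0.111). On Day 5 it was not called against Day -1 (-0.44, 95% interval -0.90 to 0.03).

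Utp20 (ID 70683), a large scaffold protein of the early precursor, read 616, 473 and 569 at 6 hours and 346, 301 and 337 on Day 1. The arrays of the 2 time points did not overlap, and the change was -0.75 ± 0.18 (adjusted p = 0.00516). Wdr43 and Wdr75, further parts of the early complex, rose from Day 2 to Day 5 by 0.51 (adjusted p = 0.00171) and 0.44 (adjusted p = 0.00252). On Day 5 neither was called against Day -1, with 95% intervals of -0.15 to 0.33 for Wdr43 and -0.37 to 0.06 for Wdr75. The probe sets of Wdr43 differed in sign over this span, with 0.09 for the one used and -0.39 for the other.

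Nop14 (ID 75416), a component of the early small subunit complex, was called against the majority into Day 0, into 6 hours and into Day 2. It read 290, 295 and 299 on Day -1, 379, 407 and 358 on Day 0 and 222, 206 and 219 at 6 hours. On Day 1 it read 211, 209 and 228, and on Day 2 it read 292, 271 and 302. None of the arrays of Day -1, Day 0 and 6 hours overlapped between those time points. The changes were 0.37 ± 0.08 into Day 0 (adjusted p = 0.000974), -0.82 ± 0.08 into 6 hours (adjusted p = 1.94e-07) and 0.41 ± 0.08 from Day 1 to Day 2 (adjusted p = 0.000418). Polr1c, Ebna1bp2, Nob1 and Rrp1b were the other 4 genes called lower from Day 0 to 6 hours, by 0.43 to 0.74 on the log2 scale, and all 5 were called without each of the 6 arrays.

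Rrp12 (ID 107094), which helps to carry unfinished subunits out of the nucleus, had the widest range of the 39 genes, 4.17-fold between its lowest and highest level. It read 141, 180 and 155 on Day -1 and 99.4, 78.2 and 102 on Day 1. It read 195, 146 and 189 on Day 2, 235, 373 and 345 on Day 3, 337, 385 and 444 on Day 4 and 442, 311 and 288 on Day 5. From Day 3 on, every array lay above every array of Day -1. The changes were 0.92 ± 0.19 from Day 1 to Day 2 (adjusted p = 0.000691), 0.96 ± 0.19 from Day 2 to Day 5 (adjusted p = 0.00058) and 1.11 ± 0.19 from Day -1 to Day 5 (2.16-fold, adjusted p = 3.19e-05). That from Day 2 to Day 3 (0.83 ± 0.19, adjusted p = 0.0144) was not called without Day 2 replicate 2 (adjusted p = 0.0530), Day 3 replicate 2 (adjusted p = 0.0778) or Day 3 replicate 3 (adjusted p = 0.0795).

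Tsr1 (ID 104662), a late factor of small subunit assembly, read 653, 499 and 754 on Day 2 and 1178, 996 and 794 on Day 5. All Day 5 arrays lay above those of Day 2, and the change was 0.64 ± 0.17 (adjusted p = 0.00657). Against Day -1, with 855, 1225 and 978, Day 5 was not called (-0.05, 95% interval -0.40 to 0.31). Rrp9, a protein of the snoRNP that guides the first cuts of the precursor, read 32.8, 49.2 and 50.8 on Day 2 and 86.4, 74.7 and 65.9 on Day 3, low on the intensity scale. It rose between these days by 0.79 ± 0.14 (adjusted p = 0.00343), and on Day 5 its change from Day -1 was -0.94 (adjusted p = 6.51e-06).

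Large subunit factors fell in nearly all cases. Of 11, 6 fell into Day 0 and 7 from 6 hours to Day 1, beside 21.7% and 15.4% of all probe sets tested. On Day 5, 10 were lower than on Day -1, beside 38.3% of all, with a median change of -0.75. Ftsj3, a methyltransferase of the precursor, was the exception (-0.11, 95% interval -0.43 to 0.22). The 3 members of the PeBoW complex, which is needed for the large subunit RNA to be cut, changed by -0.95 (Wdr12), -0.80 (Pes1) and -0.27 (Bop1) from Day -1 to Day 5. Bop1 was not called without Day -1 replicate 2 (adjusted p = 0.114), Day -1 replicate 3 (adjusted p = 0.0640), Day 5 replicate 2 (adjusted p = 0.151) or Day 5 replicate 3 (adjusted p = 0.139).

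Ddx18 (ID 66942), an RNA helicase, had the widest range of this group. It read 707, 694 and 734 on Day -1, 518, 467 and 539 on Day 0 and 297, 319 and 332 on Day 2. On Day 5 it read 319, 304 and 344. The replicates were close and did not overlap between Day -1, Day 0 and Day 2. The change was -0.49 ± 0.10 into Day 0 (adjusted p = 0.000901), -0.40 ± 0.10 from Day 1 to Day 2 (adjusted p = 0.00432) and -1.14 ± 0.10 from Day -1 to Day 5 (adjusted p = 6.72e-09). The other tested probe set of Ddx18 gave -0.14, -0.46 and -0.65 over these spans.

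Rrs1 (ID 59014), a factor that recruits a smaller ribosomal RNA to the large subunit, read 1426, 1492 and 1686 on Day -1 and 1250, 1205 and 1265 on Day 5. Its fall of 0.30 (adjusted p = 0.0186) was not called without Day -1 replicate 3 (adjusted p = 0.0948) or Day 5 replicate 2 (adjusted p = 0.0527). The other probe set of Rrs1 gave a larger change over this span, -0.72. Rrp1b (ID 72462), a nucleolar factor of the large subunit, had the largest change from Day -1 to 6 hours. It read 340, 357 and 326 on Day -1, 257, 257 and 281 on Day 0 and 169, 214 and 210 at 6 hours, each time point below the one before on every array. The change from Day -1 to 6 hours was -0.79 ± 0.09 (adjusted p = 2.66e-06). Another tested probe set of Rrp1b gave -0.38 over this span. From Day 0 to 6 hours it gave -0.10, beside -0.43 for the one used. Nip7 (ID 66164), another assembly factor, read 1324, 1017 and 1497 on Day -1 and 845, 997 and 797 at 6 hours (-0.53 ± 0.14, adjusted p = 0.0139). It was not called without Day -1 replicate 1 (adjusted p = 0.0580), Day -1 replicate 3 (adjusted p = 0.0879), 6 hours replicate 1 (adjusted p = 0.0524) or 6 hours replicate 3 (adjusted p = 0.0728).

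Among the proteins of the nucleolus itself, Nolc1 fell the most and Gnl3 rose after Day 2. Of 6, 4 fell into Day 0, beside 21.7% of all probe sets tested. On Day 5, 3 were lower than on Day -1, beside 38.3% of all, with a median change of -0.32. Npm1 (ID 18148), nucleophosmin, read 8099, 7989 and 8735 on Day -1 and 8077, 7538 and 7911 on Day 1. On Day 2 it read 5962, 6330 and 6343, and on Day 5 6159, 6639 and 6748. The step was between Day 1 and Day 2 (-0.34 ± 0.07, adjusted p = 0.000787), and Day 5 stood at -0.34 ± 0.07 against Day -1 (adjusted p = 0.000218). A further probe set of Npm1 gave a larger change over this span, -1.04. Ncl, nucleolin, which binds the precursor RNA, changed by -0.38 from Day -1 to Day 5 (adjusted p = 0.00403).

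Nolc1 (ID 70769), a chaperone that carries snoRNPs within the nucleus, fell, rose and fell again as Polr1b did. It read 1009, 1215 and 1186 on Day -1, 550, 565 and 551 on Day 0, 950, 782 and 1075 at 6 hours and 558, 497 and 464 on Day 1. The high and low time points did not overlap. The changes were -1.03 ± 0.14 (adjusted p = 7.07e-06), 0.74 ± 0.14 (adjusted p = 0.000293) and -0.88 ± 0.14 (adjusted p = 0.000121) in turn. Day 5, with 621, 512 and 475, was at -1.09 ± 0.14 against Day -1 (adjusted p = 6.82e-07). The other 2 probe sets of Nolc1 gave -1.14 and 0.14 over this span, and -0.94 and -0.36 into Day 0. They therefore disagree in sign on Day 5.

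Gnl3 (ID 30877), nucleostemin, a GTP-binding protein known from stem cells and dividing cells, was lowest on Day 2 and then rose. It read 970, 949 and 1078 on Day -1, 772, 720 and 726 on Day 0, 602, 618 and 586 on Day 1 and 592, 628 and 559 on Day 2. It then read 834, 798 and 804 on Day 3 and 1115, 976 and 1054 on Day 5. All arrays of Day 3 and Day 5 lay above those of Day 2. The change was -0.43 into Day 0 (adjusted p = 0.000425), -0.57 from 6 hours to Day 1 (adjusted p = 7.62e-05), 0.46 from Day 2 to Day 3 (adjusted p = 0.00499) and 0.82 ± 0.09 from Day 2 to Day 5 (adjusted p = 6.39e-07). Day 5 was not called against Day -1 (0.07, 95% interval -0.11 to 0.25). Ddx21, a helicase of the nucleolus, and Mybbp1a, a repressor found there, were not called from Day -1 to Day 5 either, with 95% intervals of -0.41 to 0.17 and -0.75 to 0.16. For Ddx21 this too differed by probe set, and the other gave -1.07.

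**Figure D4:**
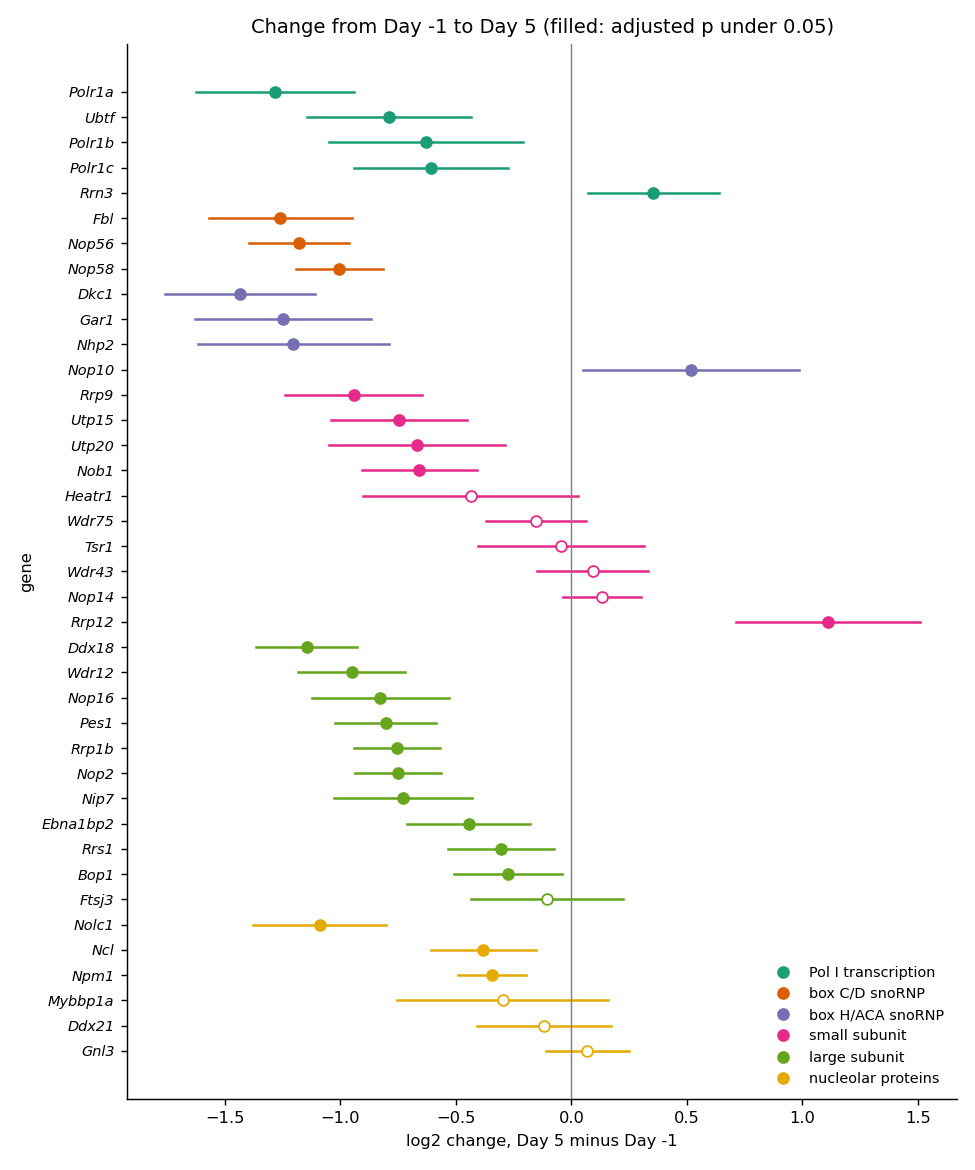
Change in mean log2 intensity from Day -1 to Day 5 (horizontal axis) for the 39 genes, by role, with 95% intervals from the limma fit and filled points for an adjusted p under 0.05. All 3 box C/D and 10 of 11 large subunit genes were called lower, and Rrp12, Nop10 and Rrn3 were called higher.

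Other genes of the pathway, from a list of 135 symbols, were measured for 127 and tested for 115. Over the whole span from Day -1 to Day 5, 59 of the 115 fell and 16 rose, beside 38.3% and 31.9% of all probe sets tested. The median log2 difference of these other genes from Day -1 was -0.09 on Day 0, -0.37 on Day 1, then -0.46 on Day 2, and it was -0.34 on Day 5. From 6 hours to Day 1, 38 fell and 1 rose, beside 15.4% and 11.6% of all probe sets. From Day 2 to Day 5, 25 rose and 5 fell, beside 13.8% and 21%. By lists, from Day -1 to Day 5, 4 of 7 other polymerase I genes fell and 0 rose, 20 of 41 small subunit genes fell and 4 rose, and 21 of 43 large subunit genes fell and 9 rose. Of 11 other snoRNP and assembly genes 6 fell and 2 rose, and of 13 genes of the RNA exosome, which trims the precursor, 8 fell and 1 rose. Imp4, a partner of the early small subunit complex, changed by -1.995 and Ddx56, a helicase of the large subunit, by -1.24. Ruvbl1 and Ruvbl2, the ATPases that assemble snoRNPs, changed by -1.18 and -1.26, and Exosc8, an exosome subunit, by -2.07. Sbds, which frees the finished large subunit for use, rose by 0.84, and Zfp622, an export and maturation factor of that subunit, by 0.55.

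Cytosolic ribosomal proteins, which the pathway builds into subunits, were listed separately. Of 78 symbols, 44 had a probe set of their own and 40 were tested. Relative to Day -1 their median was 0.16 on Day 0 and 0.07 on Day 1, then -0.03 on Day 2, and 0.03 on Day 5. Into Day 0, 10 of the 40 rose and 1 fell, beside 23.3% and 21.7% of all probe sets tested. From 6 hours to Day 1, where 24 of the 39 biogenesis genes fell, limma called 0 of the 40. Of all probe sets, 11.6% rose and 15.4% fell in that interval. Against Day -1, 8 of the 40 rose and 4 fell by Day 5, beside 31.9% and 38.3% of all.

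DNA replication genes were listed as a stand-in for cell division, which was not itself measured. Of 27 tested, 21 fell from Day -1 to Day 0, beside 21.7% of all probe sets tested. From Day 0 to 6 hours 18 rose, beside 22.4% of all. From 6 hours to Day 1, 14 fell, beside 15.4%, and from Day 1 to Day 2, 25 fell, beside 21.7%. The median over the replication genes was -0.80 on Day 0, -0.14 at 6 hours and -0.69 on Day 1. It reached -1.74 on Day 2 and -2.87 by Day 5. The replication genes fell further than the biogenesis genes from Day 1 to Day 2, with medians of -1.07 and -0.11 over this interval, and on from there. From Day 2 to Day 5, 23 of the 27 replication genes fell and 0 rose, while 11 of the 39 biogenesis genes rose and 0 fell. Of all probe sets tested, 21% fell and 13.8% rose over this span. The part of the cell cycle in the early changes was not tested.

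**Figure D5:**
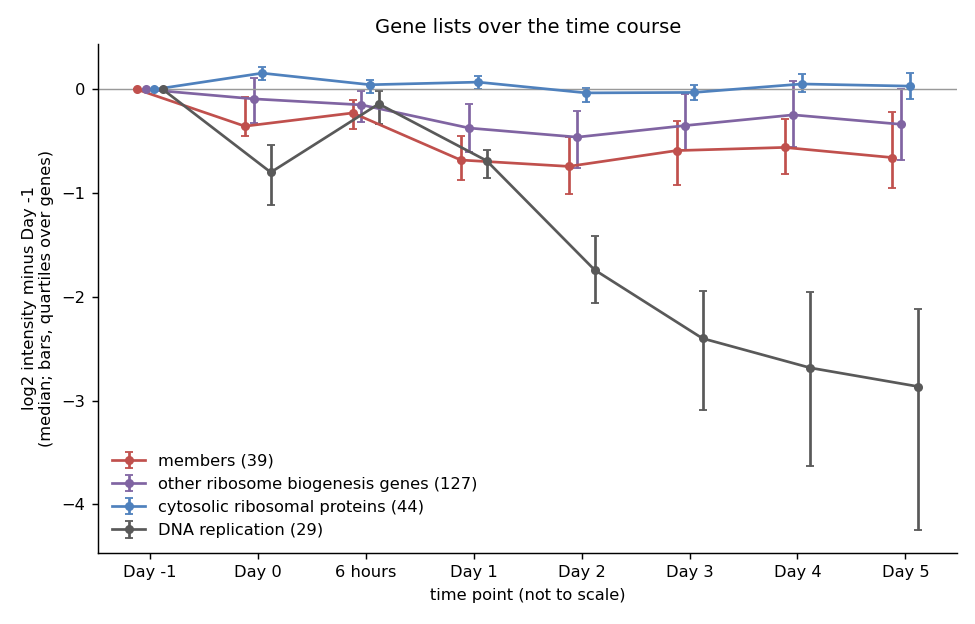
Median over genes of the mean log2 intensity minus Day -1 (vertical axis), with bars from the lower to the upper quartile of the genes, at the 8 time points (not to scale) for 4 gene lists. The biogenesis genes lay between -0.74 and -0.56 from Day 1 on, ribosomal proteins stayed within 0.2 of 0, and DNA replication genes went on down to -2.87.

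Myc encodes the regulator named above. Its level was 432 on Day -1, 670 on Day 0 and 301 at 6 hours. It was 350 on Day 1, 306 on Day 2, then 424 on Day 3, 457 on Day 4 and 569 on Day 5. It rose by 0.63 ± 0.09 into Day 0 (adjusted p = 2.34e-05), where 21 of the 39 genes fell, and its change into 6 hours was -1.16 ± 0.09 (adjusted p = 1.63e-08). From Day 2 to Day 5 Myc rose by 0.89 ± 0.09 (adjusted p = 7.65e-07), the interval in which 11 of the genes rose. Whether these changes are linked was not tested.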

How the data were processed

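C2C12 cells were measured at 8 time points with 3 arrays each. The authors computed the deposited intensity of each probe set with GCRMA, converted the values back from logs, and, by their methods, scaled them with 150 as the target for the trimmed mean. In the deposited values this mean, trimmed by 2% at each end, was 144.9 to 155.7, and why it differs from 150 is not known. Such scaling makes a level relative to all RNA on the array. Time points came from the sample labels. Log2 intensities of all 24 arrays were fitted with limma 3.58.1 in R 4.3.3, over the 13766 of 45101 probe sets whose mean reached 100 at some time point, and p-values were adjusted over these by the method of Benjamini and Hochberg (threshold 0.05). The fit was tested on simulated data. The genes, their roles and the lists were chosen with earlier results of these data known. Values on every array are given for the gene with the highest mean and that with the widest range in each role, the 3 largest changes of each comparison with 10 or more calls, and calls against the majority. Wdr43, Wdr75, Rrp9 and other genes beyond that rule were named after their values were seen. Probe sets of several genes were left out. Alternatives were only the arrays compared, a replicate block, a level of 200, no level filter, quantile normalization, values raised to 50, 16 added before the log, an intensity trend, another probe set per gene, and leaving out arrays.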

Additional observations from a re-analysis of the deposited data

How the results depend on the processing

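For the 30 changes of single genes recomputed under the alternatives, 501 of 536 values kept their direction and their side of the threshold, 31 lost the call and 4 changed sign. All 4 belong to Tsr1 from Day -1 to Day 5, which was not called. Its value ran from -0.30 to 0.10 when arrays or a replicate number were left out (0.08 without the arrays numbered 2, and 0.08 without those numbered 3).

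Fitting only the 6 arrays of a comparison gave 0 called genes from Day 2 to Day 3 in place of 3, 4 from Day -1 to 6 hours in place of 11, and 4 from Day 2 to Day 5 in place of 11. The cause was not tested, and the shares of all probe sets called in these fits are not given here. Taking the probe set with the highest absolute t gave 17 from Day 2 to Day 5, 14 higher and 3 lower. This choice takes the most extreme tested probe set of each gene, so it can only keep or raise the number of calls.

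Leaving out 1 array, or 1 replicate number of every time point, gave counts of called genes from 12 to 22 from Day -1 to Day 0 (23 with all arrays), from 7 to 18 from Day 0 to 6 hours (12 with all arrays), from 7 to 24 from 6 hours to Day 1 (24 with all arrays), from 2 to 15 from Day 1 to Day 2 (13 with all arrays), from 0 to 3 from Day 2 to Day 3 (3 with all arrays), from 0 to 2 from Day 4 to Day 5 (0 with all arrays), from 2 to 14 from Day -1 to 6 hours (11 with all arrays) and from 5 to 15 from Day 2 to Day 5 (11 with all arrays). These fits have fewer arrays, and the shares of all probe sets called in them are not given here.

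The replicate numbers did not pair the samples: the deviations of same-numbered arrays from their means correlated at -0.769 to 0.554, and only from Day 3 to Day 4 were all above 0.1. With the replicate number as a block, 20 genes were called from Day -1 to Day 0, 22 from 6 hours to Day 1, 29 from Day -1 to Day 5 and 36 over the time course. With 3 arrays per time point small changes can be missed.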
